A study of Mus musculus with 3 samples.

Results

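GLI3 binding was examined along the mouse HoxB cluster, the array of 10 Hox genes from Hoxb13 to Hoxb1 on chromosome 11, and in the sequence around it. The regions were chosen by position only: every listed GLI3 ChIP-seq peak on chromosome 11 whose summit, the position of its highest signal, lay within 100 kb of an annotated transcription start site (TSS) of a HoxB gene. This gave 38 of the 17149 listed peaks. The summits of 35 of them lay inside the cluster (chr11:96194316-96368256, mm10, a span of 173.941 kb) and those of 3 lay outside it.

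The chromatin came from whole forelimb buds of E10.5 mouse embryos (32 to 35 somites, mixed strain background), dissociated with Liberase before fixation. All embryos carried a Gli3 allele with a FLAG tag at the endogenous locus, although the genotype label reads wild type, and GLI3 was precipitated through the tag. There were 2 ChIP replicates and 1 input, each labelled as 2 litters of limb buds, so each library mixes the cells of many embryos and of the anterior and posterior limb bud. The processed data used here are 1 peak list, attached to ChIP replicate 1 and taken here as a joint call from both replicates after the study's methods. It holds no value for either replicate and no read totals, and the methods state a minimum number of reads per sample but not each library's depth. No difference below could therefore be set against the spread between replicates, and comparisons are descriptions without a test.

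Hox genes encode homeodomain transcription factors that give cells their position along the body axis, and within a cluster they lie in the order in which they are expressed from posterior to anterior. Genes at the same relative place in the HoxA, HoxB, HoxC and HoxD clusters descend from 1 ancestral gene and form a paralogue group. The HoxA and HoxD clusters pattern the limb along its length, while HoxB genes are best known for the hindbrain, the axial skeleton and the lateral plate mesoderm from which the limbs grow. GLI3 is a zinc finger transcription factor of the Hedgehog (HH) pathway, cut to a repressor where HH ligand is absent, and it recognizes the consensus GACCACCCA.

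The sequence under the strongest peaks is shown first. Each run is 300 bases of the plus strand of GRCm38.p6 (mm10) centered on the summit of one of the 3 highest-ranked peaks inside the cluster or of the highest-ranked peak outside it. Capitals mark the stretch closest to the GLI consensus in either orientation or, where several were equally close, the one nearest to the summit. None of the 4 runs held the consensus with fewer than 2 mismatches.
Rank 82, Hoxb4 intron, chr11:96319262-96319561: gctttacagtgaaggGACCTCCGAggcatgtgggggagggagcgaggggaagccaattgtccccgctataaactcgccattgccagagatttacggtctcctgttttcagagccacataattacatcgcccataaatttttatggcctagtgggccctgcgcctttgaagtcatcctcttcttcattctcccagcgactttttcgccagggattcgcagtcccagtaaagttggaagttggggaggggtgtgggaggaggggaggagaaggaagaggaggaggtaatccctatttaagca
Rank 1656, Hoxb3 intron, chr11:96332612-96332911: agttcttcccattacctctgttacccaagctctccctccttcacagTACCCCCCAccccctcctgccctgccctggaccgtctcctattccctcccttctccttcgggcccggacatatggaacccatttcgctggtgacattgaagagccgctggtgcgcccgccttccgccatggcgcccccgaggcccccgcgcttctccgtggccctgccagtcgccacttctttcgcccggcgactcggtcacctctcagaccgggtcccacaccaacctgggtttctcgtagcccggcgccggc
Rank 3331, Hoxb2 coding exon, chr11:96351912-96352211: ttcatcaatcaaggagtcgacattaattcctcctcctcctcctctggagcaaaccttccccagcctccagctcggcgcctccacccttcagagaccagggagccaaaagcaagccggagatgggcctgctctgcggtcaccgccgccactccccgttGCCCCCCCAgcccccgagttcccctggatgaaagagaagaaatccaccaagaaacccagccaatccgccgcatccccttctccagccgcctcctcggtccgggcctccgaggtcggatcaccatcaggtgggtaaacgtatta
Rank 6920, outside on the Hoxb1 side, chr11:96431907-96432206: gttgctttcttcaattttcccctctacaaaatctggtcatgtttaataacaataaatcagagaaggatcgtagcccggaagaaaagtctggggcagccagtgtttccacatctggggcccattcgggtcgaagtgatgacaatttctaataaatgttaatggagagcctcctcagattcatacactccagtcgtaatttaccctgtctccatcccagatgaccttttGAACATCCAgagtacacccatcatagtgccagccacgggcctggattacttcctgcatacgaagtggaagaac
With positions counted from 1 at the 5′ end of the consensus, the marked stretch differed from it by A5T and C8G in the Hoxb4 run and by G1T and A5C in the Hoxb3 run. The differences were A2C and A5C in the Hoxb2 run, and C3A and C6T in the outside run, which held a further stretch with 2 mismatches, GTACACCCA. These stretches were centered 131 bp, 100 bp, 11 bp and 81 bp from the respective summits.

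Of the 38 peaks, 15 had a false discovery rate (FDR) under 0.05, the threshold of the study, against 42.5% of all listed peaks. The HoxB share was 39.5% (95% Wilson interval 25.6 to 55.3%), so the proportion of peaks under the threshold was near that of the list as a whole. At an FDR under 0.01, 8 of the 38 remained, 21.1% (11.1 to 36.3%) against 28.9% of all listed peaks. The 15 peaks comprised 14 inside the cluster and 1 outside it. The median log2 enrichment over input, the largest value among the windows of a peak, was 2.23 for the 38 peaks and 2.23 for all listed peaks. Among peaks under the threshold it was 2.56 in HoxB and 2.69 in the whole list. The middle of the HoxB distribution thus lay near that of the list, and 1 peak stood far above the other 37. The 23 peaks above the threshold had log2 enrichments of 1.80 to 2.31 (median 1.99). Around the threshold, the weakest peak under it had an FDR of 0.0374 and a log2 enrichment of 2.33 (rank 7139), and the strongest above it had an FDR of 0.0704 and a log2 enrichment of 2.31 (rank 7323).

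**Figure D1:**
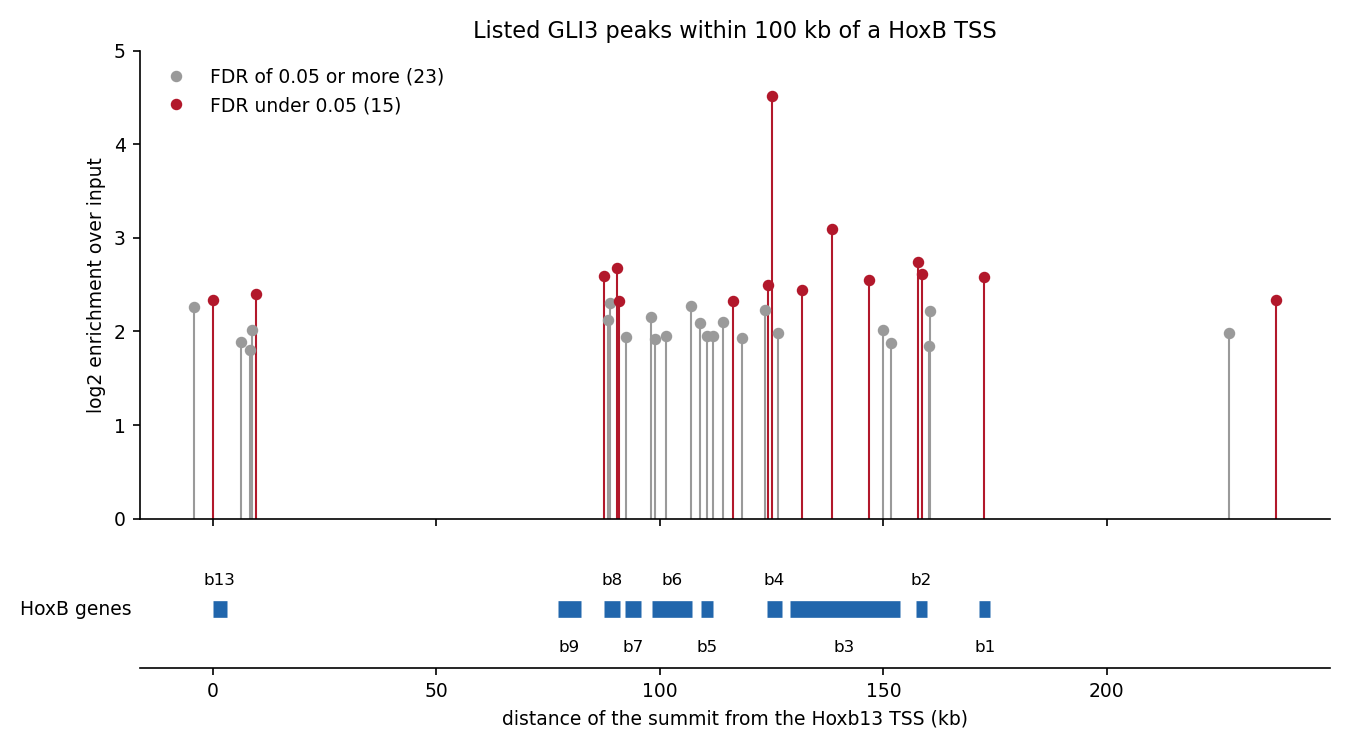
Each stem is 1 of the 38 listed peaks, placed by the distance of its summit from the Hoxb13 TSS (kb) and drawn to its log2 enrichment over input, with the HoxB genes as blue bars below. The Hoxb4 intron peak reaches 4.51, the Hoxb3 intron peak 3.10, and the other 36 lie between 1.80 and 2.74; no summit lies between 9.711 and 87.446 kb.

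The strongest HoxB peak lay in the single intron of Hoxb4, a gene known for its role in blood stem cells and in patterning the neck vertebrae. The peak (chr11:96318950-96320299, 1350 bp) ranked 82 of 17149, with a log2 enrichment of 4.51 and an FDR listed at 0. Its summit was 1145 bp after the Hoxb4 TSS. The −log10 of its smallest Poisson p-value was 99.5, which placed it at rank 97 by that measure. The next HoxB peak in the ranking had a log2 enrichment of 3.10. The Hoxb4 peak was therefore 1.42 higher on the log2 scale than any other peak of the cluster.

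Hoxb4 had 3 further listed peaks in or next to it, all weaker. One at 335 bp after the TSS, in the 5′ UTR, had a log2 enrichment of 2.49 and an FDR of 0.0114 (rank 5259). Another 355 bp before the TSS had a log2 enrichment of 2.23 and an FDR of 0.133 (rank 8439). The third, in the 3′ UTR, had a log2 enrichment of 1.99 and an FDR of 0.461 (rank 12995). The peaks ranked 8439, 5259 and 82 were adjacent, with 150 bp and 200 bp between the end of one and the start of the next.

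Hoxb3, a regulator of hindbrain identity and the longest gene of the cluster (24605 bp), held the second peak in rank. This intronic peak (chr11:96332550-96333799, 1250 bp, rank 1656) had a log2 enrichment of 3.10, an FDR listed at 0 and a −log10 Poisson p of 28.8. Its summit was 9436 bp from the nearest Hoxb3 TSS. Together with the Hoxb4 peak it made up the 2 HoxB peaks of 1 kb or longer. Hoxb3 held 5 listed summits in all, and 3 had an FDR under 0.05, the most in the body of any HoxB gene. The other 2 of these 3 were an intronic peak at rank 5770 (log2 enrichment 2.44, FDR 0.0208), and one at rank 4635 in a 5′ UTR exon and in an intron of the antisense gene Gm11536 (log2 enrichment 2.56, FDR 0.00706). None of these 3 overlapped a promoter, taken as the window from 2 kb before to 1 kb after a protein-coding TSS. The single listed promoter peak of Hoxb3, 408 bp from a TSS, had a log2 enrichment of 2.01 and an FDR of 0.454. With the 2 kb before each gene counted in, Hoxb8, a gene of 3411 bp, also had 3 summits under the threshold.

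Toward the anterior end, Hoxb2 and Hoxb1, which help to set the identity of the hindbrain segment that makes facial motor neurons, each had peaks in coding sequence. The first Hoxb2 peak (chr11:96351300-96352149, rank 3331) had a log2 enrichment of 2.74 and an FDR of 0.00113, with the summit 431 bp after the TSS. The second Hoxb2 peak lay 1351 bp after the TSS, with a log2 enrichment of 2.61 and an FDR of 0.00455 (rank 4222). Both Hoxb2 summits also fell in an intron of Hoxb3os, an antisense noncoding gene. The only Hoxb1 peak (chr11:96366700-96367049, rank 4481) had a log2 enrichment of 2.58 and an FDR of 0.00704, 1170 bp after the TSS. A pair of weaker peaks in an exon of Hoxb3os, at ranks 8634 and 15888, had FDRs of 0.133 and 1.

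In the middle of the cluster, peaks were many but weak. Hoxb5, which helps to set the position of the forelimb along the trunk, had 1 listed promoter peak, 110 bp before its TSS, with a log2 enrichment of 2.09 and an FDR of 0.251 (rank 11013). For Hoxb6, a gene of the lateral plate mesoderm, the peak nearest to the TSS lay 234 bp before it with a log2 enrichment of 2.15 and an FDR of 0.233 (rank 9819). Its strongest peak, in the 3′ UTR, had a log2 enrichment of 2.27 and an FDR of 0.0704 (rank 7896). Neither gene had a peak under an FDR of 0.05 in its body or at its promoter. The only peak under the threshold between the TSSs of Hoxb7 and Hoxb4 lay in no annotated gene, nearest to the start of the antisense gene Hoxb5os, with a log2 enrichment of 2.33 and an FDR of 0.0374 (rank 7139). A peak nearest to the microRNA gene Mir10a, 4428 bp from its start, had a log2 enrichment of 1.93 and an FDR of 0.727.

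Stronger peaks returned at Hoxb8, whose forced expression in the anterior forelimb is known to induce a second domain of Shh. A 750 bp peak (chr11:96281600-96282349, rank 4390) had its summit 143 bp before the Hoxb8 TSS, with a log2 enrichment of 2.59 and an FDR of 0.00455. The summit closest to any Hoxb8 TSS, 13 bp before a second start of the gene, belonged to a peak with a log2 enrichment of 2.12 and an FDR of 0.233 (rank 10335). A pair of peaks lay in the Hoxb8 3′ UTR, which is also the promoter window of Hoxb7. They had log2 enrichments of 2.67 and 2.33 and FDRs of 0.00228 and 0.0374 (ranks 3765 and 7018), at 1841 bp and 1346 bp before the Hoxb7 TSS. A peak in Hoxb8 coding sequence missed the threshold with an FDR of 0.0704, although its −log10 Poisson p was 13.5 (rank 7323). The peak inside Hoxb7 itself, 234 bp after its TSS in the coding exon, had a log2 enrichment of 1.94 and an FDR of 0.727.

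The summit of the Hoxb8 promoter peak fell in the 250 bases before the Hoxb8 start in RefSeq (GRCm38.p6, chr11:96281655-96281904, plus strand). This stretch is shown because it carried a summit under the threshold; it held neither the GLI consensus with at most 1 mismatch nor TGATTNAT, a sequence recognized by HOX and PBX proteins together.
Hoxb8 promoter: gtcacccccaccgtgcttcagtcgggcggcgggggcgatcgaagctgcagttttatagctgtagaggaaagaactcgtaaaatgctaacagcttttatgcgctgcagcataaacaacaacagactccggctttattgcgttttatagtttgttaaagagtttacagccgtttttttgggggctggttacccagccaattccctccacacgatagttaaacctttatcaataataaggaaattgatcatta
RefSeq promoters of 300 bases were at hand for 3 of the 10 HoxB genes, Hoxb8, Hoxb4 and Hoxb1. None of the 3 held a GLI match, which 6.74% of 32851 RefSeq promoters held, or TGATTNAT, which 3.22% held. The Hoxb4 promoter overlapped the peaks ranked 8439 and 5259, and the Hoxb1 promoter overlapped none.

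At the posterior end the peaks were sparse. Hoxb13, active in the tail bud and later in the prostate, had a peak over its 5′ UTR, 56 bp after the TSS, with a log2 enrichment of 2.33 and an FDR of 0.0374 (rank 6961). A second peak under the threshold lay 9711 bp after the Hoxb13 TSS in no annotated gene, with a log2 enrichment of 2.41 and an FDR of 0.0208 (rank 6203). The 3 other listed peaks between Hoxb13 and Hoxb9 were nearest to the small noncoding RNA gene Gm27605, with log2 enrichments of 1.80 to 2.02 and none under the threshold. Between the rank 6203 summit and the next, at the Hoxb8 promoter, 77735 bp held no listed peak summit. This gap contained Hoxb9, a gene of the thoracic skeleton, which was the only HoxB gene with no listed peak in its body or at its promoter. The nearest summit to a Hoxb9 TSS was that of the Hoxb8 promoter peak, 10239 bp away. The gap was far wider than the others of the cluster, where the median distance between neighboring summits was 1900 bp (34 distances) and the second widest was 12240 bp.

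Divided by position, the segment from the Hoxb13 TSS to the Hoxb9 TSS (77.141 kb) held 5 listed peaks, 2 of them under an FDR of 0.05. The segment from the Hoxb9 TSS to the Hoxb4 TSS (46.81 kb) held 17, with 4 under the threshold and a median log2 enrichment of 2.12. From the Hoxb4 TSS to the end of Hoxb1 (49.99 kb) there were 13, with 8 under the threshold and a median of 2.49. Of these segments, listed peaks were densest between Hoxb9 and Hoxb4, at 36.3 per 100 kb against 26.0 in the anterior segment. Peaks under the threshold were more numerous in the anterior segment, and 42.5% of all listed peaks were under it. The segment boundaries were set with the values in view, and neither difference was tested. From gene to gene, density ran from 9.57 to 84.8 per 100 kb between Hoxb9 and Hoxb4. In the anterior segment it ran from 17.7 to 59.3.

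Outside the cluster there were 3 peaks in 197.496 kb of flanking sequence. On the Hoxb13 side a single peak lay 4084 bp before the Hoxb13 TSS, with a log2 enrichment of 2.26 and an FDR of 0.0709 (rank 8015). On the Hoxb1 side the peaks lay 55975 bp and 66305 bp from the Hoxb1 TSS. The nearer had a log2 enrichment of 1.99 and an FDR of 0.461 (rank 12994). The farther (chr11:96431950-96432149, rank 6920), in no annotated gene, had a log2 enrichment of 2.34, an FDR of 0.0374 and a −log10 Poisson p of 14.8. The medians inside and outside were 2.22 and 2.26, a difference of −0.04 on the log2 scale. The nearest listed peaks beyond 100 kb were one at 101 kb on the Hoxb1 side, nearest to Skap1 (rank 6697, log2 enrichment 2.36, FDR 0.0374), and one at 118 kb on the Hoxb13 side, nearest to Atp5g1 (rank 8235, log2 enrichment 2.25, FDR 0.0763).

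Of the 38 summits, 6 lay in coding exons of HoxB genes, 5 in 5′ UTRs, 4 in 3′ UTRs and 6 in introns, and 17 in no HoxB gene. Summits also lay in antisense genes of the cluster, 7 in Hoxb5os, 6 in Hoxb3os and 1 in Gm11536. Among the 15 peaks under the threshold the counts were 3, 3, 2, 3 and 4 in the same order. Promoter windows were overlapped by 16 of 38 peaks, 42.1% (27.9 to 57.8%), and by 48.1% of all listed peaks on placed chromosomes. At gene level, 9 of 10 HoxB genes had a listed promoter peak, as did 30.9% of 21938 protein-coding genes, and 6 had one under the threshold, as did 17.2%. The 6 were Hoxb13, Hoxb8, Hoxb7, Hoxb4, Hoxb2 and Hoxb1. Counted by summits inside the window, the numbers were 8 and 5, and Hoxb1 had none.

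Peak length and enrichment went together in this list, where the median log2 enrichment of the length classes rose from 1.87 under 150 bp to 3.82 at 2000 bp or more. Across the list, peaks of 1000 to 1499 bp had a median log2 enrichment of 3.46 with quartiles of 3.07 and 3.90 (321 peaks). The Hoxb4 peak at 4.51 lay above the upper quartile of that class, and the Hoxb3 peak at 3.10 lay just above its lower quartile. The median length was 225 bp in HoxB and 250 bp in the list.

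**Figure D2:**
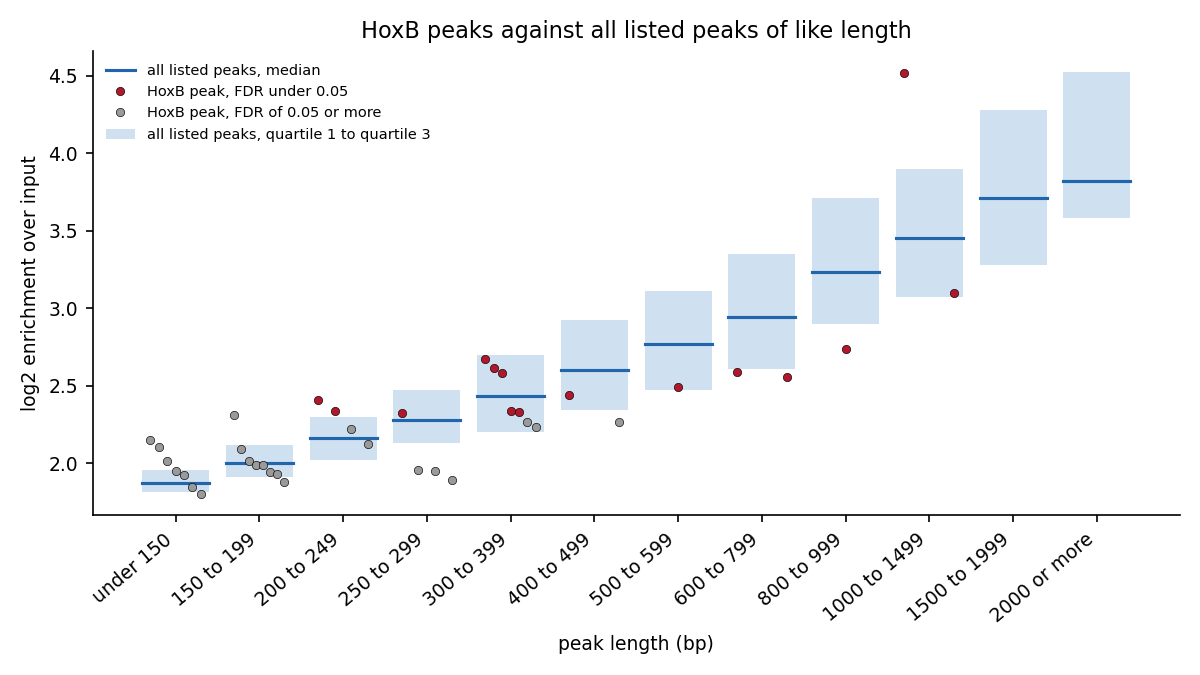
Points are the 38 HoxB peaks, placed by peak length class (bp, x axis) and log2 enrichment over input (y axis, which starts above 0); boxes run from quartile 1 to quartile 3 of all listed peaks of the class and the line in each is their median. The Hoxb4 peak lies above the box of the 1000 to 1499 bp class, and within a class the horizontal order of points is by rank only.

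Few HoxB peaks held a match to the GLI consensus. A match to GACCACCCA with at most 1 mismatch, on either strand and at most 250 bp from the summit, occurred in 2 of 38 peaks, 5.26% (1.46 to 17.3%). The share was 17.9% (17.3 to 18.4%) over all listed peaks, and the difference was not tested. In windows centered 2 kb to either side of the summits it was 7.89% for HoxB and 10.6% for all peaks. When the bases of each peak were searched in place of the window, the shares were 7.89% (2.72 to 20.8%) for HoxB and 12.8% for all listed peaks, which lies inside the HoxB interval. The exact consensus was in 0 of 38 HoxB windows, where the upper Wilson limit is 9.18%, and in 2.17% of all. None of the 15 peaks under the threshold held a match in its window (0%, upper Wilson limit 20.4%, against 20.8% of all peaks under it). The closest stretch in each of the 15 windows had 2 mismatches. Over the bases of the peak, 6.67% (1.19 to 29.8%) of the 15 held a match, against 19.9% of all peaks under the threshold. Searching both the windows and the peaks gave matches with 1 mismatch at 4 HoxB peaks, 3 of them within the peak and the one upstream of Hoxb4 before its start. These are shown with 10 bases on each side, plus strand, the match in capitals.
Rank 4390, Hoxb8 promoter, chr11:96282178-96282206, minus-strand match with A9C: tcagtctttgGGGGTGGTCtgcgaaggta
Rank 7896, Hoxb6 3′ UTR, chr11:96301105-96301133, plus-strand match with A2C: cttggcggatGCCCACCCAgcacccccag
Rank 8439, Hoxb4 upstream, chr11:96317652-96317680, minus-strand match with C3A: aaggttgccaTGGGTGTTCttgtgcgtgt
Rank 8015, Hoxb13 upstream, chr11:96189959-96189987, plus-strand match with C7A: gaagtggagaGACCACACAatgttcagcc
The Hoxb8 match is the only one in a peak under the threshold, and it lay 430 bp from the summit. The match at Hoxb6 was 83 bp from its summit, that at Hoxb4 246 bp and that at Hoxb13 259 bp. The intron peak of Hoxb4, the strongest of the cluster, held none in its 1350 bp.

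The motif TGATTNAT, searched exactly on both strands in the same windows, was found at 5 HoxB peaks, 13.2% (5.75 to 27.3%), against 6.33% of all listed peaks, which lies inside the HoxB interval. Windows 2 kb away held it in 5.26% for HoxB and 7.04% for all peaks. All 3 peaks outside the cluster and 2 of the 35 inside, at Hoxb3 and Hoxb2, carried it. The share inside, 5.71% (1.58 to 18.6%), lay near that of all listed peaks. Outside, a window 2 kb away also held it for ranks 12994 and 6920, but not for rank 8015. Inside, 2 of 70 such windows held it. The 5 matches around the summits are shown with 10 bases on each side, plus strand, the match in capitals.
Rank 8015, Hoxb13 upstream, chr11:96190053-96190080, minus-strand match: cccactgcgaATAAATCAtccaacgacc
Rank 4635, Hoxb3 5′ UTR, chr11:96341197-96341224, plus-strand match: tatgtctcaaTGATTTATggcccatatg
Rank 3331, Hoxb2 coding exon, chr11:96351905-96351932, minus-strand match: ttcaaacttcATCAATCAaggagtcgac
Rank 12994, Hoxb1 side, chr11:96421803-96421830, minus-strand match: ttcaagccacATAAATCAatgaaaatta
Rank 6920, Hoxb1 side, chr11:96431948-96431975, minus-strand match: tttaataacaATAAATCAgagaaggatc
Read on the strand of the match, 4 of the 5 were TGATTTAT and that at Hoxb2 was TGATTGAT. A match is a stretch of letters and not a measured site.

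Most HoxB peaks lay in CpG-rich sequence. A CpG island, defined as 200 bp with a GC fraction of 0.5 or more and over 0.6 of the CpGs expected from base composition, was present within 500 bp of the summit for 32 of 38 peaks. This was 84.2% (69.6 to 92.6%) against 62.6% of all listed peaks, and 83.3% in HoxA, 74.2% in HoxC and 76.0% in HoxD. With a stricter definition (500 bp, 0.55 and 0.65) the shares were 47.4% and 48.8%, so a higher HoxB share was seen with the looser definition and not with the stricter one; neither difference was tested. GC content around the summits was alike, with medians of 55.4% in HoxB and 55.9% in the list.

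**Figure D3:**
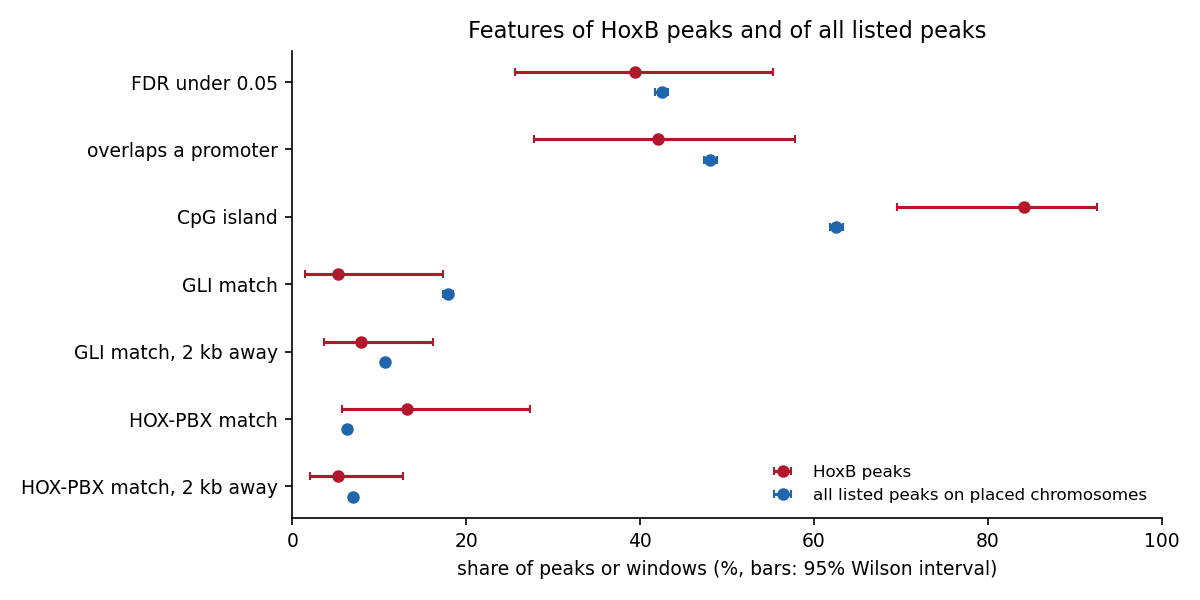
Points give the share (%) of the 38 HoxB peaks (red) and of the 17144 listed peaks on placed chromosomes (blue) with each feature, and bars are 95% Wilson intervals, which cover counting error only; HOX-PBX match is TGATTNAT. The HoxB share was higher for CpG islands (84.2 against 62.6%) and lower for GLI matches (5.26 against 17.9%), while the shares under an FDR of 0.05 were close (39.5 against 42.5%).

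The density of HoxB peaks was next set beside the other Hox clusters, counted in the same way. Inside the HoxB cluster there were 20.1 listed peaks and 8.05 under the threshold per 100 kb. On chromosome 11 as a whole the values were 1.11 and 0.520. The HoxA cluster held 49.4 listed and 16.1 under the threshold per 100 kb, HoxC 23.3 and 4.32, and HoxD 39.2 and 19.6. Without the sequence between Hoxb13 and Hoxb9, HoxB density was 31.0 listed peaks per 100 kb. HoxB thus had the lowest density of listed peaks over its whole span. Its value from Hoxb9 to Hoxb1 lay above the whole-span value of HoxC, but the other clusters were not shortened in the same way. For peaks under the threshold HoxB lay between HoxC and HoxA. The share of listed peaks under the threshold was 39.5% in HoxB, 31.7% in HoxA, 19.4% in HoxC and 52.0% in HoxD. The widest distance between neighboring summits inside each cluster was 77735 bp in HoxB, 13130 bp in HoxA, 18610 bp in HoxC and 13070 bp in HoxD.

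The highest-ranked peak of any Hox cluster was nevertheless the Hoxb4 peak. The strongest HoxD peak had a log2 enrichment of 4.31 (rank 119), the strongest HoxA peak had one of 4.19 (rank 157), and the strongest HoxC peak was at rank 252. The second peaks of these clusters followed closely, at 3.84 in HoxD, 3.85 in HoxA and 3.61 in HoxC, against 3.10 in HoxB. The first 1000 of the 17149 listed peaks held 1 of the 38 HoxB peaks, 3 of the 60 from HoxA, 2 of the 31 from HoxC and 2 of the 50 from HoxD. These counts were too small to order the clusters. GLI matches with at most 1 mismatch occurred at 9 of 60 HoxA peaks, 2 of 38 HoxB peaks, 2 of 31 HoxC peaks and 9 of 50 HoxD peaks. Among peaks under the threshold they occurred at 4 of 19, 0 of 15, 0 of 6 and 7 of 26 in the same order.

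**Figure D4:**
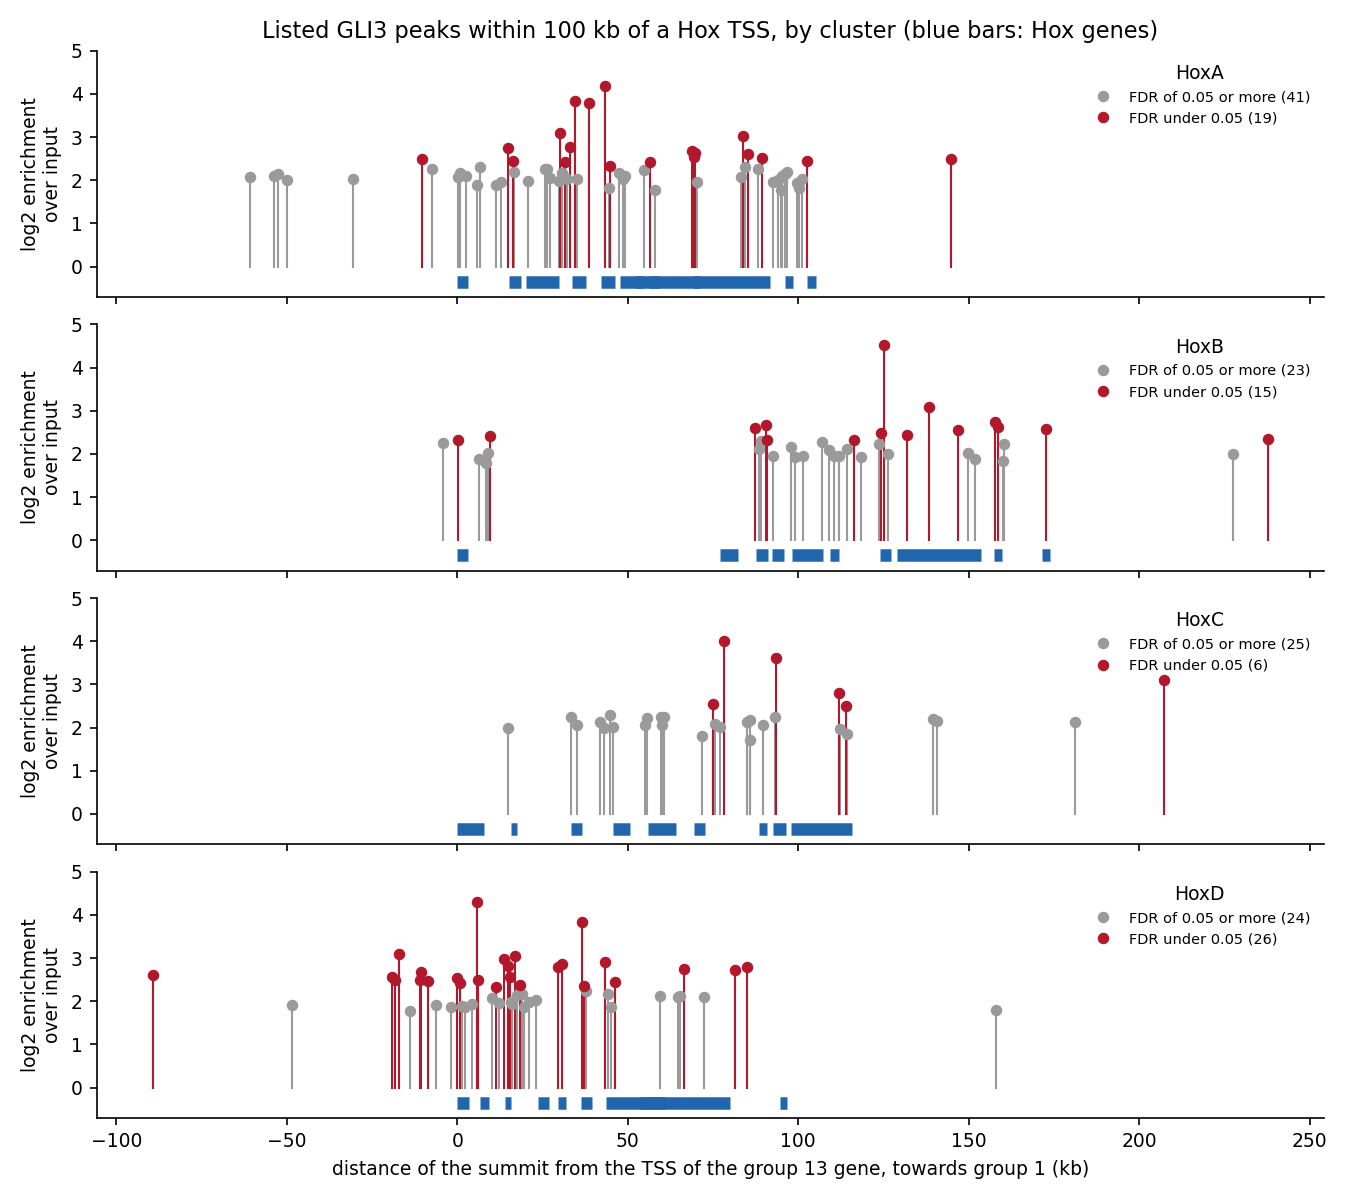
Each panel shows the listed peaks within 100 kb of a TSS of one Hox cluster, by distance of the summit from the TSS of the group 13 gene toward group 1 (kb) and by log2 enrichment over input, with the Hox genes as blue bars. HoxB has 1 peak above 3.5 and a gap of 77735 bp between Hoxb13 and Hoxb8; HoxA, HoxC and HoxD have 3, 2 and 2 peaks above 3.5.

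Binding at promoters was also compared within the paralogue groups that hold a HoxB gene, by the highest log2 enrichment among the peaks that overlap each gene's promoter windows. In group 4, the Hoxb4 windows overlapped the peak of rank 82 (4.51), but only by its edge, since its summit lay 1145 bp after the TSS and the window ends at 1 kb. The highest Hoxb4 peak with its summit in a window had 2.49 (rank 5259), below Hoxa4 at 2.67 and Hoxc4 at 2.81, so the order in group 4 turned with the rule. The only Hoxd4 promoter peak, at 2.12 (rank 10354), was not under the threshold.

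Several HoxB genes lay below a paralogue. Hoxb7 had 2.67 against 4.19 for Hoxa7, and Hoxb8 had 2.59 against 3.84 for Hoxd8, while Hoxc8 had no listed promoter peak. Hoxb5 had 2.09, not under the threshold, against 2.43 for Hoxa5 and 3.61 for Hoxc5. Hoxb3 had 2.01, also not under the threshold, against 2.17 for Hoxa3, likewise not under it, and 2.91 for Hoxd3. Hoxb9 had no listed promoter peak, whereas Hoxa9 had 3.85, Hoxd9 had 2.86 and Hoxc9 had 2.22, the last not under the threshold. In group 13, Hoxb13 had 2.33, Hoxd13 had 2.53 and Hoxa13 had 2.16, the last not under the threshold, and Hoxc13 had none listed.

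The order differed in groups 2 and 6. Hoxb2 had 2.74 and Hoxa2 had 2.19, the latter not under the threshold. Hoxb1 had 2.58, from a peak with its summit outside the window, so that counted by summits in the window it had none. Hoxd1 had no listed promoter peak by either rule. In group 6, Hoxb6 had 2.15, not under the threshold, and neither Hoxa6 nor Hoxc6 had a listed promoter peak. Over the 4 clusters, 33 of 39 Hox genes had a listed promoter peak and 20 had one under an FDR of 0.05, against 30.9% and 17.2% of 21938 protein-coding genes.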

How the data were processed

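GLI3-FLAG ChIP-seq was performed on 2 pools of E10.5 forelimb buds with 1 input (15 PCR cycles). The submitters' processing notes name Bowtie2 2.2.5 and mm10, and the study's methods name CisGenome for peak calling; alignment settings are not given in the sources used here. The deposited list is attached to ChIP replicate 1 and was taken as a joint call, which it does not itself state. Per the file headers it gives an FDR, a q-value from the authors' caller. The authors also deposited the largest log2 fold enrichment over input in each peak, a T statistic (a score that sets the rank) and a Poisson p-value on the −log10 scale.

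Summits were matched to TSSs of GENCODE M21 (basic set) on GRCm38.p6, where 0 peak ends lay beyond a chromosome and 5 peaks lay on unplaced sequence. Motifs, GC content and CpG islands were read from that genome with pysam 0.24.0, and intervals were computed with SciPy 1.17.1 (Wilson, 95%, counting error only; neighboring peaks are not independent). The search was tested on simulated sequence and found 500 of 500 planted sites. No test was run, since the list has no value per replicate.

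The members and lists were chosen with earlier results of these data known. Named genes were the 10 HoxB genes, genes at or nearest to a summit, and the other Hox genes by paralogue group, 1 of which is not reported here; Skap1 and Atp5g1, nearest to the peaks just beyond 100 kb, are outside that rule. Values were given for all peaks under an FDR of 0.05 and for the peak nearest to each HoxB TSS. Sequences were those of the 3 highest-ranked peaks inside, the highest-ranked outside, the Hoxb8 promoter and the motif matches; the 39 bases planned around each remaining closest GLI stretch were not printed. Alternatives changed the distance, TSS set, FDR, cluster limits, merging of close summits, promoter window, motif window and CpG criteria.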

Additional observations from a re-analysis of the deposited data

How the results depend on the processing

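Across 9 results and 32 alternatives, 20 values stayed within 1.5 times the count or within the Wilson interval of the share as reported, and 12 moved. The number of listed HoxB peaks ran from 36 within 50 kb to 44 within 200 kb of a TSS, and the comprehensive GENCODE set, an alternative chosen after seeing the data, left the counts at 38 and 15. An FDR under 0.01 left 8 peaks (21.1%, against 28.9% of all listed peaks). With the cluster taken from Hoxb9 to Hoxb1, 78.9% of the peaks lay inside and the density was 31.0 per 100 kb. The inside minus outside difference in median log2 enrichment, −0.042 as reported, became 0.088 with those limits, 0.23 among peaks under an FDR of 0.05 (1 of them outside) and −0.026 within 200 kb, so its sign is not settled by 3 outside peaks. Promoter windows of all annotated genes raised the promoter share to 57.9%. The share with a GLI match was 0% for the exact consensus and 0% among peaks under an FDR of 0.05, and it was 2.63% within 100 bp of the summit and 7.89% over the whole peak, where all listed peaks had 12.8%. The CpG island share was 47.4% under the stricter criteria and 93.3% among peaks under an FDR of 0.05. Density was 8.05 per 100 kb for peaks under an FDR of 0.05, and 14.9 for listed peaks with summits within 1 kb merged. No merged value is given for the other clusters. The Hoxb4 peak ranked 97 by Poisson p-value and 82 by log2 enrichment.

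No paired analysis was possible because the peak list used here gives HoxB peaks no separate values from either ChIP library, whose reads were not analysed here. A fit without 1 of the libraries could not be made from it either. The list gives no read counts and only 1 joint call, which limits every value: no HoxB peak can be assigned an error between replicates, and a stretch without a listed peak shows only that none was listed.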
